A study of Mus musculus with 18 samples.

Results

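The genes of the nuclear lamina and of the inner nuclear membrane were followed in mouse embryonic fibroblasts in which a chromatin effector was sent to the major satellite repeat. The genes were chosen by name from the known parts of the lamina and its membrane, and were Lmna, Lmnb1, Lmnb2, Lbr, Emd, Tmpo, Banf1, Sun1 and Sun2. All 9 were found among the 47937 gene IDs of the deposited count table, and all 9 were among the 16216 genes with enough counts to be tested. The cells were fibroblast lines with a doxycycline-inducible dCas9, the form of Cas9 that binds DNA without cutting it. In the activator line dCas9 was joined to VPR, a transcriptional activator, and induction was with 10 ng/ml doxycycline for 6 h. In the repressor line it was joined to KM, the repressor of the labels, and induction was with 100 ng/ml for 24 h. In the control line dCas9 had no effector named, and induction was with 10 ng/ml for 24 h. Each line also gave uninduced libraries, and each of the 6 groups held 3 libraries, 18 in all. All lines shared the same inducible system and hygromycin in the medium, and whether a line was 1 clone or a pool of cells is not given in the sources used here. Induction was shorter in the activator line than in the control line and its dose was higher in the repressor line, so effector, time and dose cannot be told apart when responses of lines are compared. Replicates are numbered libraries with no word on separate cultures, and p-values therefore describe the spread between libraries, which may be technical.

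The nuclear lamina is a mesh of intermediate filament proteins, the lamins, that lines the inner face of the nuclear envelope. A-type lamins come from Lmna and B-type lamins from Lmnb1 and Lmnb2. Membrane proteins bind this mesh and chromatin: the lamin B receptor (Lbr) also binds heterochromatin protein 1 and carries a sterol reductase domain, and emerin (Emd) and the lamina-associated polypeptide 2 isoforms (Tmpo) carry a LEM domain that binds the small DNA-bridging protein BAF (Banf1). Sun1 and Sun2 span the inner membrane and join the lamina, through nesprins, to the cytoskeleton. Lamin A/C and Lbr are known as alternative tethers that hold heterochromatin at the nuclear edge, while the satellite heterochromatin that was targeted here forms the chromocentres of mouse nuclei.

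The libraries held between 14928765 and 25262912 counts, and each member had between 825 and 16349 counts in every library. Gm10800, a gene model known to carry major satellite sequence, stood at 2071 to 2931 CPM (counts scaled to library size, with TMM factors) in induced activator libraries and at 17.7 to 20.4 CPM in uninduced activator libraries. It stood at 0.265 to 0.448 CPM in induced repressor libraries, against 3.31 to 4.16 CPM uninduced, and at 0.740 to 1.49 CPM in induced control libraries, against 3.48 to 5.17 CPM uninduced. A pair of gene models, Gm26917 and Gm42418, took 18.02% to 20.6% of the counts in induced activator libraries and 10.4% to 13.7% in the other libraries. The induced activator libraries also stood apart in the share of mitochondrially encoded counts, 0.920% to 0.974% against 0.582% to 0.676% elsewhere, in the number of genes with a count, 22641 to 23420 against 20107 to 21331, and in the TMM factor, 0.852 to 0.905 against 1.01 to 1.05. Of 8 fibroblast markers, 7 were expressed, and Thy1 had 1 count in 1 library. Of the markers of other cell types, Epcam, Hbb-bs, Myod1, Snap25, Pou5f1 and Zfp42 had no count in any library. Others had counts in every library. Tubb3 (neural) stood at 20.6 to 53.4 CPM, Cd68 (blood) at 3.60 to 5.48 and Acta1 (muscle) at 1.07 to 3.58. Des (muscle) stood at 1.07 to 2.72 CPM, Nanog (pluripotent) at 0.527 to 1.52, and the epithelial Cdh1, Krt8 and Krt18 at 0.685 or less. In the activator induction with TMM scaling, Acta1 rose by 1.17 and Tubb3 fell by 0.70 on the log2 scale. The 3 endothelial markers summed to 18.5 to 23.4 CPM in induced activator libraries and to at most 0.722 CPM elsewhere. Pecam1 carried nearly all of it, with Cdh5 and Kdr at 0.330 CPM or less. In the activator induction with TMM scaling, the fibroblast genes Pdgfra and Pdgfrb both fell by 1.14 on the log2 scale. The other 5 tested fibroblast markers were called higher, Col1a2 only narrowly (log2 fold change 0.053, edgeR adjusted p = 0.0496). With total counts as the scale 0 of the 7 were higher and 3 lower, and with mitochondrially encoded genes 0 were higher and 7 lower. The part of these changes in the results below was not tested. In bulk RNA, fewer cells with a transcript and less of it per cell cannot be told apart.

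Per kilobase of exon, Lmna and Banf1 were the most abundant of the 9 genes, and the B-type and SUN genes spread over a wide range. Over the 18 libraries the level was 110.02 ± 6.85 CPM per kilobase for Lmna and 96.5 ± 12.8 for Banf1 (mean ± SD). Lmnb1 followed with 76.9 ± 3.77 CPM per kilobase, more than Lmnb2, the other B-type lamin gene, with 13.6 ± 0.863. Tmpo stood at 36.8 ± 1.05 CPM per kilobase, Lbr at 28.5 ± 2.97 and Emd at 23.0 ± 2.14. Sun2, at 17.4 ± 1.52 CPM per kilobase, stood above Sun1, at 10.97 ± 0.906, and the libraries of these 2 genes did not overlap on this scale (lowest Sun2 value 15.7, highest Sun1 value 12.9). Exon lengths were the union of all annotated exons, which counts every isoform and so lowers genes with many, such as Tmpo with 10998 bases.

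**Figure D1:**
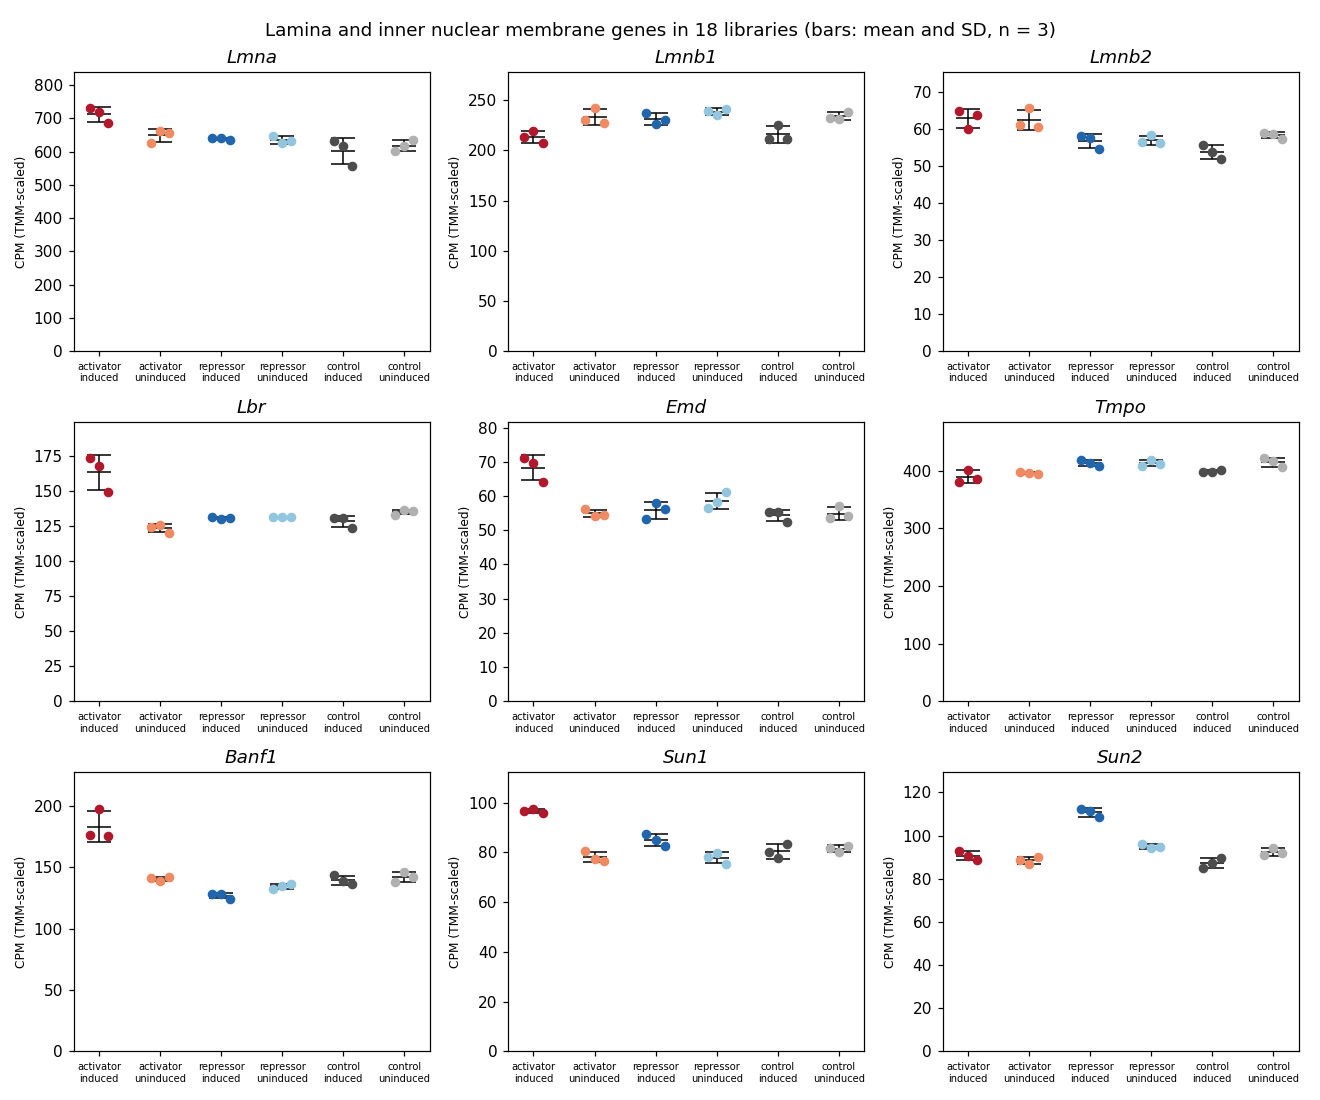
Levels of the 9 genes in CPM after TMM scaling, each axis starting at 0, with 1 point per library and bars for the mean and SD of 3 libraries. Groups run from the induced activator line on the left to the uninduced control line on the right. Lmna, Lbr, Emd, Banf1 and Sun1 are highest in induced activator libraries, at 712, 164, 68.2, 183 and 96.8 CPM, and Sun2 is highest in induced repressor libraries, at 111 CPM.

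The genes lie on separate chromosomes apart from Lmnb2 and Tmpo on chromosome 10 (GRCm38, GENCODE M21). Lmna (ENSMUSG00000028063.15) lies on chromosome 3 from 88480147 to 88509956, Lbr (ENSMUSG00000004880.11) on chromosome 1 from 181815335 to 181843046 and Banf1 (ENSMUSG00000024844.14) on chromosome 19 from 5364638 to 5367168. Sun1 (ENSMUSG00000036817.14) lies on chromosome 5 from 139200637 to 139249840, Sun2 (ENSMUSG00000042524.13) on chromosome 15 from 79724070 to 79742536 and Emd (ENSMUSG00000001964.14) on chromosome X from 74254687 to 74261548. Lmnb2 (ENSMUSG00000062075.13) lies from 80901203 to 80918245 and Tmpo (ENSMUSG00000019961.16) from 91147571 to 91181315 on chromosome 10. The upstream sequences of the 3 membrane protein genes that rose with the activator under TMM scaling and of Sun2, which rose with the repressor, are shown. Sun1 was called higher in both lines, less firmly with the repressor, so the sequences do not sort genes by the line in which they rose. Each line gives the 250 bases before the RefSeq start on the gene's own strand, 5′ to 3′, at chr1:181842402-181842651 (minus strand), chrX:74254437-74254686 (plus), chr5:139200387-139200636 (plus) and chr15:79742537-79742786 (minus) of GRCm38.p6. Capitals mark CCAAT and GGGCGG, the CCAAT box and GC box, read on either strand, and matches that adjoin or overlap form 1 run.
Lbr: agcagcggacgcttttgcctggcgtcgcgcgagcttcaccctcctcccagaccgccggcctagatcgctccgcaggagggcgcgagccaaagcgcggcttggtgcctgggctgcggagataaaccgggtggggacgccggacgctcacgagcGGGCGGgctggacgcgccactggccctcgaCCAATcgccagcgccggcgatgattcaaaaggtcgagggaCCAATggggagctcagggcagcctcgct
Emd: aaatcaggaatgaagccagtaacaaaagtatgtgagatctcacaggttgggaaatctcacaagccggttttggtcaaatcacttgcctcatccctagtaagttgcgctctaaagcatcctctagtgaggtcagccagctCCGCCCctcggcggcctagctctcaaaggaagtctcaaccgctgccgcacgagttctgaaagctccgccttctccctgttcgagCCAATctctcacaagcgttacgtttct
Sun1: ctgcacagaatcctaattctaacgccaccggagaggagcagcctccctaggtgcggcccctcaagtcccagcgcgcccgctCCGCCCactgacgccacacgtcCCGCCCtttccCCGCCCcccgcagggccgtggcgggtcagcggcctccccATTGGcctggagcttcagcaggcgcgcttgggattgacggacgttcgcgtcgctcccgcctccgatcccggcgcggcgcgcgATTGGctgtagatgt
Sun2: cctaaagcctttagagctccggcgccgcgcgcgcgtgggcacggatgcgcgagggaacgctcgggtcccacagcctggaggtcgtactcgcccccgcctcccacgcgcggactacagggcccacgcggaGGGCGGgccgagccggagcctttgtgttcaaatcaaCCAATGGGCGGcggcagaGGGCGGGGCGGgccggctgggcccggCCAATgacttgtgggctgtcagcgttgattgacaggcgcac
CCAAT was found on either strand in 6 of the 8 members with an entry, against 33.8% of all 32851 promoters in the table, and GGGCGG in 8 of 8, against 32.7%. For members only the start farthest upstream was used, while the background took every start of every gene, expressed or not. The member and background shares are therefore not alike, and no enrichment is read from them. All 250 bases of the Banf1 sequence and 34 of those of Lmna lay in annotated exons. Lbr, Sun1 and Sun2 each held 2 CCAAT matches and Emd held 1. All 4 sequences shown held both motifs. A match is a description of the letters and not of a bound site.

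Induction of the activator for 6 h moved the 9 genes modestly and in different directions. With TMM scaling and the edgeR quasi-likelihood test, 5 members were higher, 1 was lower and 3 were not called at an adjusted p of 0.05. Over all genes tested 75.3% were called in this comparison, 38.2% higher and 37.2% lower. The total share of members called, 6 of 9, was below the background. With this scaling the share called higher, 5 of 9, was above it, and the share called lower, 1 of 9, was below it. The split of members between higher and lower depended on the scaling, as given further on. In 6 members no induced library fell within the uninduced range or the reverse, against 76.3% of all genes. The members also moved little for this comparison: their median absolute log2 fold change was 0.13, against 0.45 for all genes tested. Their median signed log2 fold change was 0.13, against 0.0042 for all genes, and all members lay within the range from −0.13 to 0.40.

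Among the lamins, with TMM scaling, Lmna rose, Lmnb1 fell and Lmnb2 was not called. Lmna had 730.2, 720.1 and 686 CPM in induced activator libraries, against 627, 662 and 657 CPM in uninduced ones. The groups did not overlap, and the change was a log2 value of 0.13 (SE 0.031, n = 3 per group, edgeR adjusted p = 0.000134), a gain of 9.80%. Lmnb1 (ENSMUSG00000024590.8, chromosome 18 from 56707813 to 56753424), the B-type lamin made in nearly all cell types, had 213, 219 and 207 CPM induced, against 231, 242 and 227 CPM uninduced. All induced values were below all uninduced values, with a log2 fold change of −0.13 (SE 0.030, edgeR adjusted p = 6.41e-05), a call that was lost with upper-quartile scaling (−0.028, edgeR adjusted p = 0.394). Lmnb2 had 64.7, 59.9 and 63.8 CPM induced, against 60.9, 65.5 and 60.6 CPM uninduced. These values overlapped, and the interval of the log2 fold change ran from −0.070 to 0.092 (edgeR adjusted p = 0.816).

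The receptor and LEM pathway divided, with Lbr, Emd and Banf1 higher and Tmpo not called. Lbr had 173, 168 and 149 CPM in induced activator libraries, against 125, 126 and 120.3 CPM in uninduced ones. The groups were well apart, induced library 3 was the lowest of its group, and the log2 fold change of 0.40 (SE 0.034, edgeR adjusted p = 1.45e-17) was the largest of the 9. Banf1, whose product bridges DNA and LEM proteins, had 176, 198 and 175 CPM induced, against 141, 139 and 142 CPM uninduced. Induced library 2 stood above the other two, and the log2 fold change was 0.38 (SE 0.033, edgeR adjusted p = 6.67e-18). Eif1ad, a gene on the opposite strand that covers 28.6% of the exon bases of Banf1, had 55.5 CPM induced and 58.4 CPM uninduced, and its log2 fold change of −0.071 was not called (edgeR adjusted p = 0.121). Emd had 71.0, 69.7 and 64.1 CPM induced, against 56.2, 54.1 and 54.4 CPM uninduced. Its groups did not overlap, with a log2 fold change of 0.31 (SE 0.042, edgeR adjusted p = 3.76e-10). The pseudogene Gm14686 covers 13.6% of the exon bases of Emd on the same strand and holds 11.9% of the 100-base words of Emd transcripts. It had no count in any library. How reads in the overlap were counted is not given, so this does not show whether the counts of Emd were affected. Tmpo had 380.4, 402 and 386 CPM induced, against 399, 396 and 395 CPM uninduced. Its values overlapped, and the interval of the log2 fold change ran from −0.079 to 0.026 (edgeR adjusted p = 0.356).

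Of the SUN genes, Sun1 rose with the activator and Sun2 was not called. Sun1 had 96.8, 97.6 and 95.8 CPM induced, against 80.4, 77.4 and 76.6 CPM uninduced. The log2 fold change was 0.31 (SE 0.036, edgeR adjusted p = 1.98e-12), a gain of 23.6%, and the induced libraries spread by only 0.900 CPM (SD). Sun2 had 92.7, 90.8 and 88.6 CPM induced, against 88.8, 86.8 and 89.9 CPM uninduced. The groups overlapped, and the interval of the log2 fold change ran from −0.033 to 0.104 (edgeR adjusted p = 0.343).

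**Figure D2:**
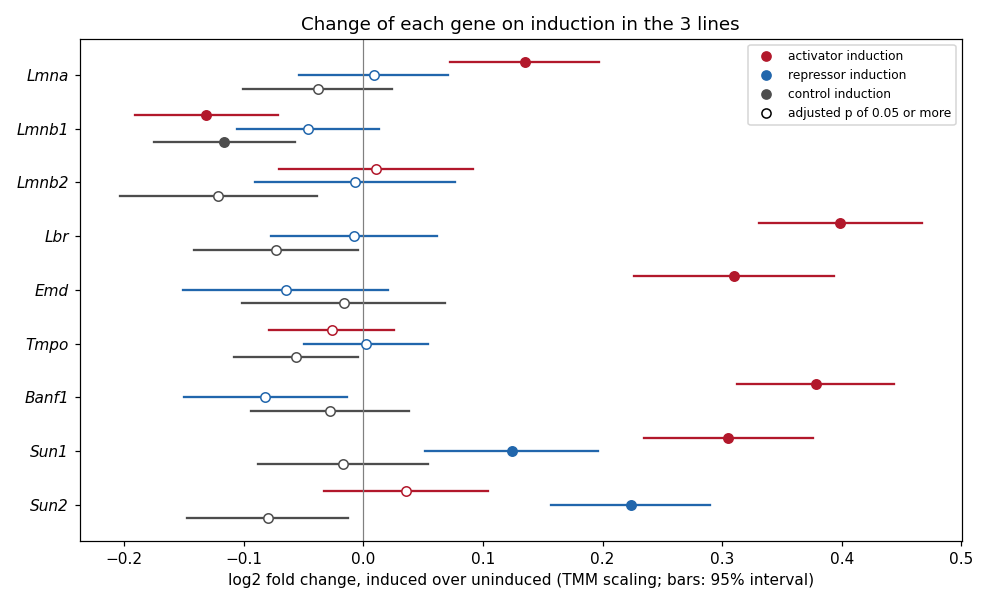
Log2 fold change of each gene on induction in the activator, repressor and control lines with TMM scaling, with 95% intervals. Filled points passed an adjusted p of 0.05. In the activator line Lbr stands at 0.40 and Lmnb1 at −0.13, and in the repressor line Sun2 stands at 0.22.

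These directions hold for TMM scaling, and several turned with the scale. The median log2 change of all genes in the activator induction was 0.0042 with TMM, −0.219 with total counts, −0.111 with total counts less Gm26917 and Gm42418, −0.753 with mitochondrially encoded genes as the scale and 0.108 with upper-quartile scaling. With total counts, Lbr (0.17) and Banf1 (0.155) were still called higher, Emd (0.086) and Sun1 (0.082) were no longer called (edgeR adjusted p = 0.0695 and 0.0517), and Lmna turned to −0.089. With mitochondrially encoded genes all 9 members were called lower, from −0.34 for Lbr to −0.87 for Lmnb1. A change of scaling shifts all genes nearly alike, so distances from the median gene are fixed by construction and are given only to place the members: over the 5 scalings Lbr stood 0.39 to 0.41 above the median, Banf1 0.37 to 0.39, Emd 0.30 to 0.32, Sun1 0.30 to 0.32 and Lmna 0.127 to 0.145. Lmnb1 stood below it, between −0.14 and −0.12, and Lmnb2, Sun2 and Tmpo stayed between −0.034 and 0.045.

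**Figure D3:**
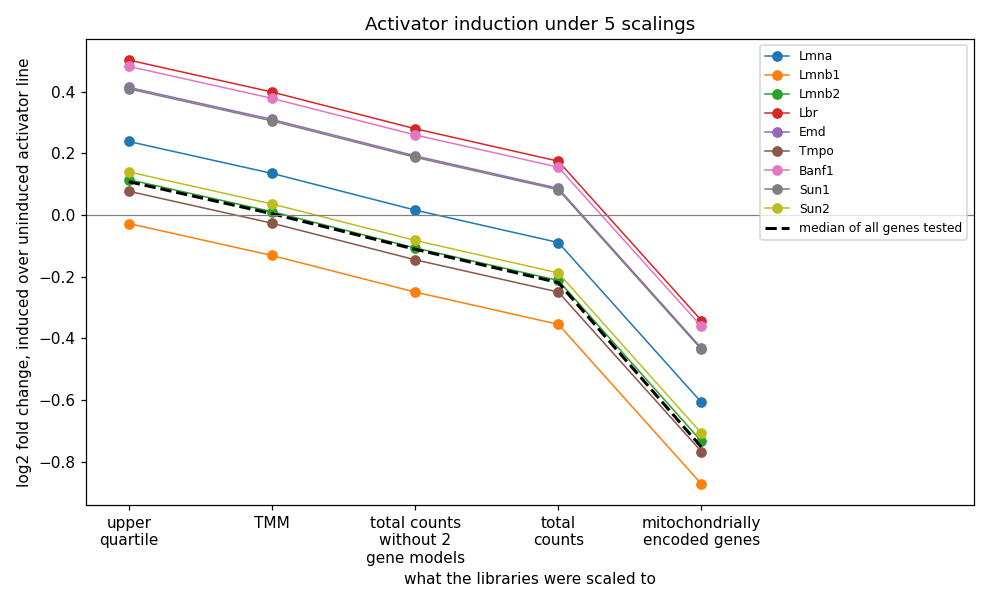
Log2 fold change of the 9 genes in the activator induction under 5 scalings, with the median of all genes tested as a dashed line. A change of scaling shifts all genes nearly alike, so the lines run side by side. Lbr is the highest and Lmnb1 the lowest member at each of the 5 scalings, while the number of members above 0 depends on the scaling. Emd and Sun1 have nearly equal values, Emd slightly higher, and the points of Sun1 are drawn over those of Emd.

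Ratios of raw counts within a library carry no scaling, and they restate the unequal change of the paired genes. They come from the same counts as the changes above and are no separate support for them. They were picked after the levels had been seen and are given without a test. The Lmna to Lmnb1 ratio was 3.42, 3.28 and 3.31 in induced activator libraries, against 2.72, 2.73 and 2.89 in uninduced ones. The Lbr to Lmnb1 ratio was 0.813, 0.765 and 0.719 induced, against 0.540, 0.521 and 0.529 uninduced. In both cases the induced activator libraries stood above all 15 others. The Sun1 to Sun2 ratio was 1.04, 1.08 and 1.08 in induced activator libraries, against 0.906, 0.891 and 0.852 in uninduced ones, so that Sun1 had more counts than Sun2 in the induced activator libraries and fewer in the other 15. In induced repressor libraries the same ratio was 0.778, 0.762 and 0.761, against 0.816, 0.850 and 0.798 in uninduced repressor libraries. The Banf1 to Tmpo ratio was 0.463, 0.492 and 0.454 in induced activator libraries, against 0.354, 0.350 and 0.359 in uninduced ones.

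**Figure D4:**
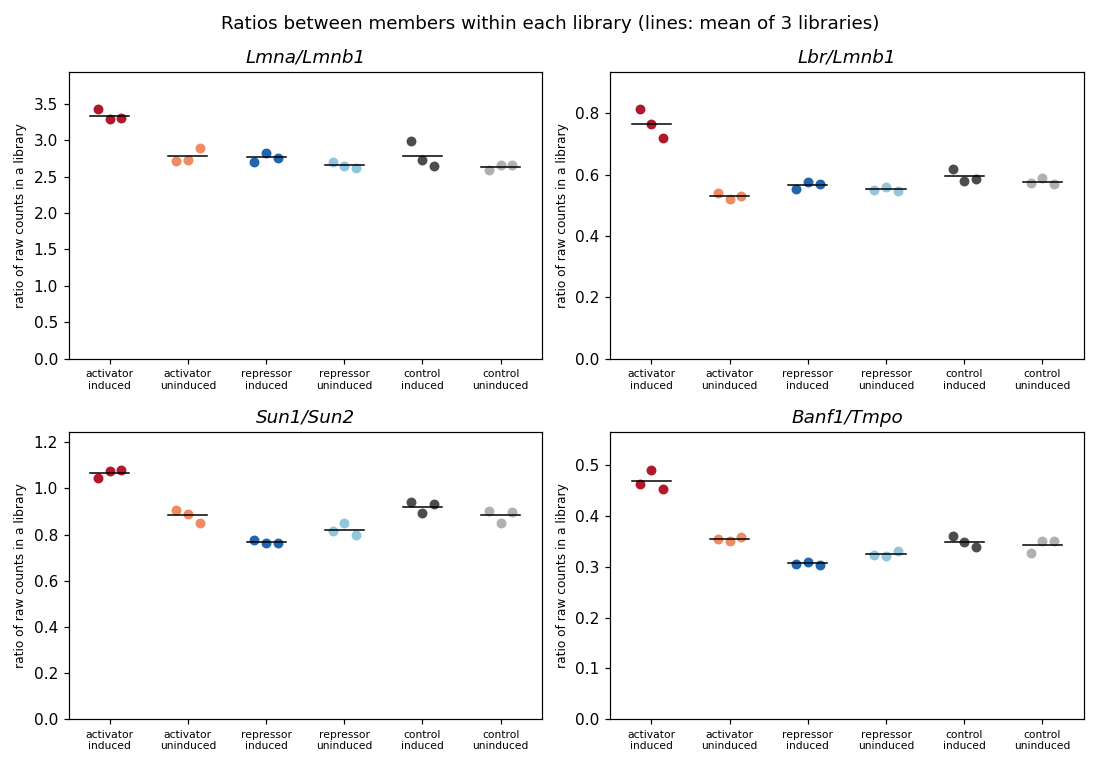
Ratios of raw counts between pairs of the genes, with 1 point per library and the mean of each group of 3. Groups run from the induced activator line on the left to the uninduced control line on the right. The Lmna to Lmnb1 ratio averages 3.34 in induced activator libraries and 2.78 in uninduced ones.

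The response to the activator was then set against that of the control line, which asks whether dCas9 and doxycycline without the activator gave the same change. With TMM scaling the response was higher in the activator line for 7 of 9 members, and 63.7% of all genes differed (30.8% higher, 33% lower). The members' split depended on the scaling, with 2 higher and 3 lower with total counts, 4 and 2 with total counts less Gm26917 and Gm42418, 8 and 0 with the upper quartile and 0 and 9 with mitochondrially encoded genes. The difference in log2 fold change was 0.47 for Lbr (SE 0.048, edgeR adjusted p = 6.68e-14), 0.41 for Banf1 (SE 0.047, edgeR adjusted p = 2.37e-12), 0.33 for Emd (SE 0.060, edgeR adjusted p = 1.81e-06) and 0.32 for Sun1 (SE 0.050, edgeR adjusted p = 4.1e-08). Lmna differed by 0.17 (SE 0.044, edgeR adjusted p = 0.000623). With mitochondrially encoded genes as the scale all of these differences were below 0. With total counts the difference was −0.070 for Lmna, and those of Emd, 0.083, and Sun1, 0.080, were not called (edgeR adjusted p = 0.248 and 0.207). Without the pair of gene models that of Lmna, 0.053, was not called (edgeR adjusted p = 0.232). The differences of Lmnb2, 0.13, and Sun2, 0.12, were close to the threshold (edgeR adjusted p = 0.0406 and 0.0307), and the call was lost in 8 and 6 of the 12 fits that left out 1 library. Neither gene was called in the activator or the control induction with TMM scaling. Lmnb2 changed by 0.011 in the activator line and −0.12 in the control line, and Sun2 by 0.036 and −0.080. Lmnb1 was called lower in both lines with TMM scaling, and the difference between the lines lay between −0.099 and 0.069 (edgeR adjusted p = 0.775). For Tmpo the interval ran from −0.044 to 0.103.

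Induction of the repressor for 24 h raised Sun2 and, less firmly, Sun1, while the lamins, Lbr and the LEM protein genes were not called. These were 2 of 9 members, against 9.81% of all genes tested (5.21% higher, 4.59% lower), and the groups did not overlap in 3 members, against 26.7% of all genes. Sun2 had 112, 112 and 108 CPM in induced repressor libraries, against 96.0, 94.0 and 94.7 CPM in uninduced ones. The groups did not overlap, and the log2 fold change was 0.22 (SE 0.033, edgeR adjusted p = 2.62e-07), a gain of 16.8%. The induced repressor libraries were the highest of all 18 for this gene. Sun1 had 87.5, 85.0 and 82.6 CPM induced, against 78.3, 79.9 and 75.5 CPM uninduced, with a log2 fold change of 0.12 (SE 0.036, edgeR adjusted p = 0.0156). Its call was lost without induced library 1, induced library 2 or uninduced library 3 (edgeR adjusted p = 0.105, 0.0573 and 0.117) and with mitochondrially encoded genes as the scale (0.298).

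In the same libraries all 7 tested fibroblast markers were called lower, with a median log2 fold change of −0.245, and Tubb3, a neural marker, and Des, a muscle marker, were called higher (log2 fold changes of 0.63 and 1.097), with Snap25 and Myod1 at 0. The part of these changes in the SUN gene results was not tested. The remaining members were not called in the repressor line. Banf1 had 128, 128 and 124 CPM induced, against 132, 135 and 136 CPM uninduced. All induced libraries were lower, and the log2 fold change of −0.082 was not called (edgeR adjusted p = 0.127), although it was called in a fit of only the groups compared (edgeR adjusted p = 0.0407). Lbr had 132, 130.3 and 131 CPM induced, against 132, 132 and 132 CPM uninduced, and the interval of its log2 fold change ran from −0.077 to 0.061. For Lmna the interval ran from −0.054 to 0.071, for Lmnb1 from −0.105 to 0.013, for Lmnb2 from −0.091 to 0.076, for Emd from −0.151 to 0.021 and for Tmpo from −0.050 to 0.054. Set against the control line, the response of Sun2 was higher in the repressor line by 0.30 (SE 0.047, edgeR adjusted p = 2.86e-06), the single member called where 2.73% of all genes were (1.19% higher, 1.54% lower). The same difference for Sun1, 0.14, was not called (interval 0.040 to 0.242, edgeR adjusted p = 0.147). This test and the one for the activator share the control libraries.

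Induction of dCas9 alone left most members uncalled. Lmnb1 was the exception, 1 of 9 members against 0.463% of all genes tested (0.253% higher, 0.21% lower). It had 211, 226 and 211 CPM in induced control libraries, against 233, 232 and 239 CPM in uninduced ones. The log2 fold change was −0.12 (SE 0.030, edgeR adjusted p = 0.0429), and the call was lost in 5 of the 6 fits that left out 1 library, where adjusted p lay between 0.0911 and 0.243. It was kept without induced library 2. In 5 of the 9 members all 3 induced control libraries were below all 3 uninduced ones, against 7.3% of all genes that were lower in this way and 15.5% in either direction. Besides Lmnb1 these were Lmnb2, at 55.6, 53.6 and 51.9 CPM induced against 58.8, 58.6 and 57.3 CPM uninduced, and Lbr, Tmpo and Sun2. None of these 4 was called, with log2 fold changes between −0.12 and −0.056 and edgeR adjusted p between 0.201 and 0.417. Lmna, Emd, Sun1 and Banf1 overlapped between the groups.

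Before induction few differences between lines were called. In the uninduced activator line, 1 of 9 members differed from the uninduced control line, against 19.5% of all genes tested (8.92% higher, 10.5% lower). This was Lbr, with 125, 126 and 120.3 CPM in the activator line, against 133, 136 and 136 CPM in the control line. Its log2 difference was −0.13 (SE 0.034, edgeR adjusted p = 0.00486). Tmpo was not called in this fit (−0.067, edgeR adjusted p = 0.0606) but was called lower by DESeq2 (DESeq2 adjusted p = 0.0273) and limma-voom (limma-voom adjusted p = 0.0299). A fit of only the groups compared called Lmna higher and Tmpo lower (edgeR adjusted p = 0.0124 and 0.0192). In the uninduced repressor line 0 of 9 members were called by edgeR, DESeq2 or limma-voom, against 1.56% of all genes by edgeR (0.863% higher, 0.697% lower), and 2 members, Emd and Banf1, had an unadjusted p under 0.05.

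Over the 6 groups, with TMM scaling, the spread of a gene was largest for Banf1, whose highest group mean was 1.44 times its lowest, followed by Lbr at 1.32 and Sun2 at 1.27. It was smallest for Tmpo, at 1.07, followed by Lmnb1. On this scale the induced activator group was on top, with no overlap with the next group, for Lmna, Lbr, Emd, Banf1 and Sun1, and the induced repressor group was on top in the same way for Sun2. With mitochondrially encoded genes as the scale, Lmna, Lbr, Emd, Banf1 and Sun1 were instead called lower in the activator induction. Their log2 fold changes then ran from −0.34 for Lbr to −0.61 for Lmna. For Lmnb1 the order ended with induced control and induced activator libraries, at 216 ± 8.58 and 213 ± 5.97 CPM (SD, n = 3 each), which overlapped with each other. The induced repressor group above them stood at 231 ± 5.81 CPM. Its lowest library, at 225.95 CPM, was barely above the highest induced control library, at 225.89 CPM. The difference between these groups was not tested. For Tmpo the top 3 groups, between 413 and 415 CPM, could not be told apart.

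Other genes of the nuclear envelope were taken from lists of related function, and with TMM scaling they too divided in the activator induction. The counts below stand beside 75.3% of all genes called in this comparison, 38.2% higher and 37.2% lower. Of 17 other inner membrane and lamina-associated genes tested, 4 were higher, 9 were lower and 4 were not called, with a median log2 fold change of −0.10. Higher were the ATPase gene Tor1a, at 42.1 ± 1.66 CPM induced and 28.2 ± 0.804 CPM uninduced (SD, n = 3 each, log2 fold change 0.58), and the genes of its partners, Tor1aip2 (0.45) and Tor1aip1 (0.38), which encode the proteins LULL1 and LAP1. Lower were Nemp1, at 18.03 ± 0.112 CPM induced and 42.2 ± 0.956 CPM uninduced (−1.23), Tmem201 (−0.83) and the LEM protein gene Lemd2 (−0.52). Of 5 genes of outer-membrane nesprins or of testis SUN proteins that were tested, 2 were lower and none was higher, with a median of −0.38. Syne3, which encodes nesprin-3, had 19.5 ± 0.819 CPM induced and 39.8 ± 1.58 CPM uninduced (−1.04), and Spag4, a testis SUN gene, had 1.48 CPM induced and 3.47 CPM uninduced (−1.21).

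Of 5 lamin processing genes, 2 were higher and 2 lower, with a median of 0.043. Zmpste24, the protease that matures prelamin A, had 118 ± 7.20 CPM induced and 88.4 ± 2.27 CPM uninduced, a log2 fold change of 0.42. Fnta (0.20), a subunit of the farnesyltransferase, was also higher, and Icmt (−0.15) and Rce1 (−0.14), which finish the modified end of the protein, were lower. Of 28 nuclear pore genes tested, 17 were higher, 8 were lower and 3 were not called, with a median of 0.13. Nup88 (0.69), Sec13 (0.64) and Nup188 (0.46) rose the most, and Nup153, a nucleoporin of the nuclear basket, fell by 0.51 on the log2 scale, with 169 ± 7.26 CPM induced and 241 ± 4.09 CPM uninduced. Ahctf1 (−0.28) and Nup43 (−0.27) followed among those that were lower. Of 14 genes of cycling cells, 9 were higher and 3 lower, with a median of 0.24. The replication licensing genes Mcm3 (0.53), Mcm5 (0.51) and Mcm2 (0.49) rose the most, and Ccna2 (−0.22), Top2a (−0.19) and Birc5 (−0.11) were lower. The summed level of the 14 was 3863 to 4054 CPM in induced activator libraries and 3471 to 3514 CPM in uninduced ones, and its part in the changes of the lamina genes was not tested. With mitochondrially encoded genes as the scale, none of these genes was called higher and all of the 17 inner membrane, 5 processing and 14 cycling genes were lower. With total counts 3 of 17 inner membrane genes were higher and 12 lower, and 1 processing gene was higher and 3 lower. On that scale 8 of 28 pore genes were higher and 15 lower, and 6 of 14 cycling genes were higher and 6 lower. With total counts less Gm26917 and Gm42418, 4 inner membrane genes were higher and 10 lower, 11 pore genes higher and 11 lower, and 8 cycling genes higher and 4 lower. With the upper quartile 7 inner membrane genes were higher and 5 lower, 3 processing genes were higher and 0 lower, 20 pore genes were higher and 5 lower, and 10 cycling genes were higher and 2 lower.

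**Figure D5:**
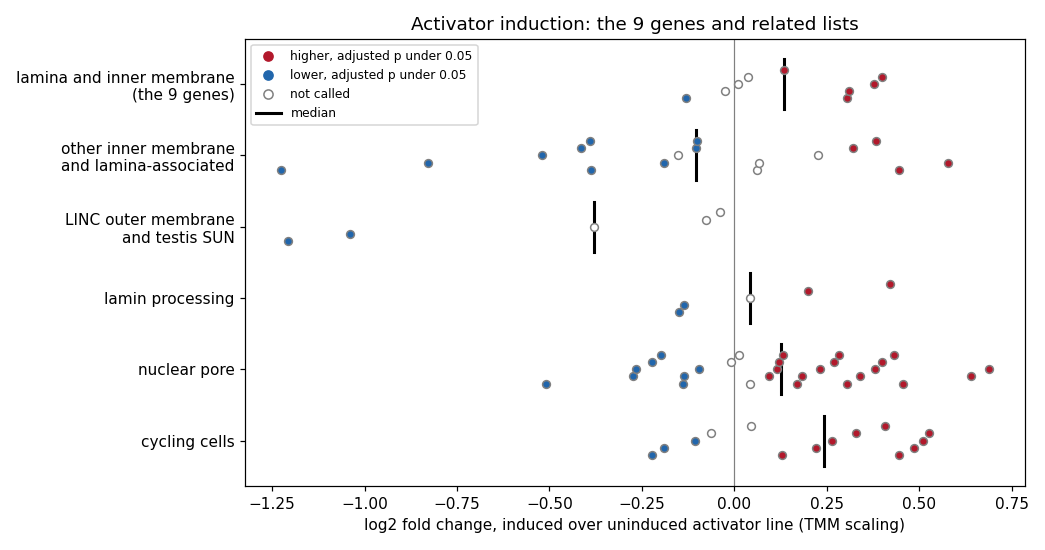
Log2 fold change in the activator induction with TMM scaling, 1 point per gene tested, for the 9 genes and 5 related lists, with each list's median as a black bar. Filled red points were called higher, filled blue points lower and open points not called. Points run from −1.23 for Nemp1 to 0.69 for Nup88, and the median is 0.13 for the 9 genes and −0.10 for the other inner membrane genes.

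Few genes of these lists were called in the other inductions. In the repressor line the inner membrane genes called lower were Nemp1 and Tmem120a, both with −0.17 (edgeR adjusted p = 0.0212 and 0.0172), calls that were lost with total counts or mitochondrially encoded genes as the scale, and Spag4, of the SUN list, was higher by 0.59 (edgeR adjusted p = 0.00861). Nup37 (−0.19) and Nup43 (−0.15) were the pore genes that were called, both lower, and Mki67 (0.11) was the cycling gene called. With total counts 1 pore gene was higher and 1 lower, and with mitochondrially encoded genes as the scale 1 pore gene was lower and no cycling gene was called. In the control line 2 cycling genes, Plk1 (−0.16) and Ccnb1 (−0.12), were lower, and no gene of the other 4 lists was called. With total counts 1 cycling gene was higher and 1 lower in the control line, and with mitochondrially encoded genes none was called.

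Across the libraries the correlations among Lbr, Emd and Banf1 were high with the induced activator group and low without it. Pearson's r between Lbr and Emd was 0.897 over all 18 libraries and 0.291 over the 15 libraries outside that group, and between Lbr and Banf1 it was 0.840 and −0.0765. These points share groups and library depth and are given as a description. Among all genes tested, those whose pattern over the 18 libraries was most like that of Lbr were Akt1 (r = 0.972), Gapdh and Pcna, and those most like Banf1 were U2surp (r = 0.973), Smarcc1 and Skp1a. Emd was most like Bcdin3d (r = 0.948), Atp6ap2 and Grem1, Sun1 most like Ogdh (r = 0.952), Cux1 and Rbl1, and Lmna most like Ddx23 (r = 0.942), Ccdc124 and Pold1. For Sun2 the nearest genes were Adgrg1 (r = 0.902), Tgfa and Slc29a3, and for Lmnb1 they were Hist1h2bl (r = 0.862), Hist1h1b and Flywch1. Tmpo was most like Cbx5 (r = 0.893), Luc7l2 and Serpinb9, and Lmnb2 most like Alg3 (r = 0.899), Akt1s1 and Brd2.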

How the data were processed

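RNA-seq of total RNA was made with stranded, rRNA-depleted paired-end libraries, per the labels' protocols. The deposited table holds raw counts of reads per gene, whole numbers not normalized by the authors; the build was mm10, per the submitters' processing notes, and for aligner, annotation and strand the tool or setting is not given in the sources used here. Reads of genes overlapping on opposite strands therefore cannot be told apart. IDs were matched to GENCODE M21 (GRCm38) ignoring version, 47224 of 47937 in all. Counts were fitted with edgeR 4.0.16 in R 4.3.3 (TMM, filterByExpr, robust quasi-likelihood F test, all 18 libraries, 1 coefficient per group, 12 residual degrees of freedom), and p-values were adjusted by Benjamini-Hochberg over 16216 genes at 0.05. Levels are CPM after TMM scaling, and intervals are at 95%. The script was also run on simulated counts in which only a small share of genes was changed, as many up as down. That run does not test the choice of scaling. Alternatives were other scalings, no filter, DESeq2 1.42.0, limma-voom (limma 3.58.1), only the groups compared, a replicate block and leaving out each library; scaling to total counts without Gm26917 and Gm42418 was chosen after seeing the data. Upstream sequences are from RefSeq on GRCm38.p6, the start farthest upstream where a gene had several. The members and lists were chosen with earlier results of these data known. All members were named, with up to 3 called genes in each direction of each related list by size of the change in the activator induction, up to 2 in the other inductions, and the 3 genes with the highest Pearson correlation to each member in log2 CPM. Same-numbered libraries of a line did not deviate together (correlations −0.023 to 0.025 over 9 pairs). Libraries of a group differed by more than sampling noise (chi-square per degree of freedom 1.36 to 6.35 over 18 pairs), so none was counted as a duplicate.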

Additional observations from a re-analysis of the deposited data

Results flagged for a closer look

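The results here are those in which the response to induction differed between a line with an effector and the control line by the edgeR interaction test. With TMM scaling the difference in log2 fold change, activator minus control, was 0.47 for Lbr, 0.41 for Banf1, 0.33 for Emd, 0.32 for Sun1, 0.17 for Lmna, 0.13 for Lmnb2 and 0.12 for Sun2. The calls of Lmnb2 and Sun2 were lost in 8 and 6 of the 12 fits that left out 1 library. Neither of these genes was called in the activator induction itself with TMM scaling. Induction lasted 6 h in the activator line and 24 h in the control line, so effector and time cannot be told apart. For the repressor line the difference from the control line was 0.30 for Sun2, where induction lasted 24 h in both lines and the dose was 100 ng/ml in the repressor line and 10 ng/ml in the control line.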

How the results depend on the processing

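Of 1053 alternative values of the member genes, 966 kept their side of the threshold, 38 lost the call, 22 gained one and 27 changed sign while called in 1 or both fits. Among the 966, 52 values that were not called in either fit also changed sign, 26 of them on leaving out a library. The 27 sign changes came under other scalings. In the activator induction, total counts gave −0.089 for Lmna, −0.21 for Lmnb2 and −0.19 for Sun2, and upper-quartile scaling gave 0.077 for Tmpo. Mitochondrially encoded genes gave −0.61 for Lmna, −0.73 for Lmnb2, −0.34 for Lbr, −0.43 for Emd, −0.44 for Sun1, −0.71 for Sun2 and −0.36 for Banf1, and total counts without Gm26917 and Gm42418 gave −0.11 for Lmnb2 and −0.082 for Sun2. In the activator minus control response, total counts gave −0.070 for Lmna, −0.11 for Lmnb2, −0.21 for Tmpo and −0.13 for Sun2. Mitochondrially encoded genes gave −0.53 for Lmna, −0.57 for Lmnb2, −0.23 for Lbr, −0.37 for Emd, −0.67 for Tmpo, −0.38 for Sun1, −0.59 for Sun2 and −0.29 for Banf1, and total counts without the pair of models gave −0.090 for Tmpo and −0.0035 for Sun2. Members called higher and lower in the activator induction were 5 and 1 with TMM, 2 and 5 with total counts, 8 and 0 with upper quartile, 0 and 9 with mitochondrially encoded genes, 4 and 4 without the pair of models and 5 and 2 with no filter. In the activator minus control response they were 7 and 0 with TMM, 2 and 3 with total counts, 8 and 0 with upper quartile, 0 and 9 with mitochondrially encoded genes, 4 and 2 without the pair of models, 5 and 0 with no filter or only the groups compared and 8 and 0 with DESeq2. Members called in the repressor induction were 1 with mitochondrially encoded genes and 3 with only the groups compared, against 2. In the control induction they were 0 with total counts, mitochondrially encoded genes or limma-voom, against 1. In the uninduced activator comparison they were 2 with total counts, mitochondrially encoded genes, limma-voom or DESeq2 and 3 without the pair of models or with only the groups compared, against 1. Leaving out each library gave 6 members in the activator induction, 5 to 7 in its difference from control, 1 to 2 in the repressor induction, 1 in its difference from control, 0 to 1 in the control induction, 1 to 2 in the uninduced activator comparison and 0 in the uninduced repressor comparison. Over all genes, mitochondrially encoded genes as the scale gave 723 calls, against 1590, in the repressor induction, 32, against 75, in the control induction and 172, against 442, in the repressor minus control response. In the uninduced repressor comparison the count was 253 and became 164 with total counts, 82 with mitochondrially encoded genes, 125 with DESeq2 and 513 with only the groups compared. Leaving out a library gave 35 to 58 calls in the control induction and 103 to 190 in the uninduced repressor comparison. A replicate block within each line gave 6, 2, 1, 7, 1, 1 and 0 members called in the 7 comparisons, the same counts as without it, and the numbers do not pair the libraries. The cause of these differences was not tested.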
